A study of Mus musculus with 3 samples.

Results

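Inhibitory receptor genes were followed in donor T cells after allogeneic bone marrow transplantation (BMT) under calcineurin inhibition. The 7 genes were Pdcd1, Lag3, Havcr2, Ctla4, Cd160, Btla and Entpd1, taken from a list by name out of 18029 genes in the count table, and all 7 were in the table and passed the filter on low counts in both CD4+ and CD8+ T cells. The values were sums over 10091 CD4+ and 10833 CD8+ splenic T cells from a single-cell RNA and T cell receptor (TCR) experiment.

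B6D2F1 mice were irradiated and transplanted with B6 bone marrow, B6 T cells and TEa T cells, which carry a transgenic TCR on a Rag1-/- background and recognise an alloantigen of the recipient. Every recipient received this graft, and the groups differed only in the daily agent from day 0 to day 6, which was saline or cyclosporin (CSA), given at either 5 or 50 mg/kg. Spleens were taken on day 7 from 6 mice per group, the cells of 2 mice were combined into each of 3 pools per group, and pools were told apart by hashtag antibodies, so a replicate is a pool of 2 mice. Each group was loaded as 1 droplet capture of sorted CD4+ and CD8+ T cells, and therefore a treatment and its capture cannot be told apart. The age of the animals is not given in the sources used here.

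Inhibitory receptors are induced when a T cell is stimulated through its antigen receptor, and they dampen that signal again. PD-1 (Pdcd1), CTLA-4 (Ctla4) and BTLA (Btla) are receptors of the immunoglobulin superfamily that bind PD-L1 and PD-L2, CD80 and CD86, and HVEM, while LAG-3 (Lag3) binds MHC class II, TIM-3 (Havcr2) binds galectin-9 among other ligands, CD160 (Cd160) also binds HVEM, and CD39 (Entpd1) is an ectoenzyme that degrades extracellular ATP on the way to adenosine. CSA blocks the phosphatase calcineurin and with it the nuclear entry of NFAT transcription factors, which bind DNA at sites with a GGAAA core.

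Because of that core, the 250 bases before each RefSeq gene start (GRCm38.p6, the mm10 assembly) were searched for GGAAA on both strands, and 3 of them are shown, that of the gene that fell most, that of a gene that moved little and that of a gene with no match. Capitals mark matches, which read TTTCC where they lie on the opposite strand. The sequences are written 5′ to 3′ along the strand of the gene.
Pdcd1, chr1:94052554-94052803, minus strand: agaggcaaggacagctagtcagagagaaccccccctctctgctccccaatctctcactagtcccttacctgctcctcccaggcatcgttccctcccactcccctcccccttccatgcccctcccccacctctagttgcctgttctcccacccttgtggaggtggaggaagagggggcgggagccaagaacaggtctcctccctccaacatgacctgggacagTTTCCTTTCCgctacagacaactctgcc
Ctla4, chr1:60908775-60909024, plus strand: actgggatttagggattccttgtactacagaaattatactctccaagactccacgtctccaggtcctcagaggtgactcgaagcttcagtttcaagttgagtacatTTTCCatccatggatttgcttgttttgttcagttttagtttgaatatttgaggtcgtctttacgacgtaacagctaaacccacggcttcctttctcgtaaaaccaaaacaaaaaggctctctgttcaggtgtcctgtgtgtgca
Havcr2, chr11:46454681-46454930, plus strand: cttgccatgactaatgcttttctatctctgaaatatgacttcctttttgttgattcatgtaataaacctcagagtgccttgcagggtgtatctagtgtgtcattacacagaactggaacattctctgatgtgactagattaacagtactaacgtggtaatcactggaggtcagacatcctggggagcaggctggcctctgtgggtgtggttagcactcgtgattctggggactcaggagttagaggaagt
The Pdcd1 sequence held 2 matches that follow each other without overlap, 28 and 23 bases before the start, and at least 2 matches were present in 21.4% of 32851 mouse promoters of the same length. Ctla4 held 1 match, 144 bases before the start, and at least 1 match was present in 55.6% of promoters. No match was found before Havcr2 or before the searched start of Btla. That Btla window (chr16:45224087-45224336) lies inside the gene span given below, so the bases before the span were not searched. Lag3 had no entry among the promoters and was not searched. Cd160 and Entpd1 had 2 annotated starts each, with 0 and 1 match for Cd160 and 0 and 2 for Entpd1. These are matches of letters in a window and not measured binding sites. The genes lie at chr1:94038305-94052553 (Pdcd1), chr6:124904359-124912434 (Lag3), chr11:46454931-46481255 (Havcr2), chr1:60909025-60915832 (Ctla4), chr3:96798763-96829351 (Cd160), chr16:45223705-45252895 (Btla) and chr19:40612366-40741602 (Entpd1).

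The pools held 875 to 1479 CD4+ and 692 to 1615 CD8+ cells with 3994968 to 7592334 and 4392100 to 11454636 unique molecular identifiers (UMIs). The median UMI number per cell rose with dose, from between 2966 and 3174 with saline to between 5795 and 6300 with 50 mg/kg in CD4+ cells and from between 4026 and 4254 to between 6656 and 8065 in CD8+ cells. Expression was therefore compared on UMI sums per pool, scaled to CPM (the UMIs of a gene relative to all UMIs of the pool) with trimmed mean of M values (TMM) factors. All CD4+ cells held a Cd4 UMI and none a Cd8a UMI, and all CD8+ cells the reverse. The deposited sets thus divide exactly by Cd4 and Cd8a, which are then no independent check of the lineage. Cd8b1 did not divide them, since its UMIs were found in 40.7%, 35.4% and 13.6% of CD4+ cells with saline, 5 and 50 mg/kg. Its level was 147, 91.7 and 23.3 CPM there and 1307, 1445 and 2692 CPM in CD8+ cells. The part of such RNA in the receptor levels of CD4+ cells was not tested. Levels of markers of other cells differed between groups, since the summed CPM of 8 B cell genes ranged from 195 to 218 with saline and from 576 to 750 with 50 mg/kg in CD8+ cells (217 to 230 and 286 to 339 in CD4+ cells), mostly from Ighm and Jchain, while Ms4a1 had at most 4 UMIs per group in CD8+ cells. The summed level of 6 erythroid genes ranged from 3.21 to 14.8 CPM with saline and from 27.7 to 37.0 CPM with 50 mg/kg in CD4+ cells, and from 4.15 to 17.9 and from 24.6 to 48.7 CPM in CD8+ cells. That of 6 dendritic cell genes ranged from 99.99 to 109.6 and from 123 to 134 CPM in CD8+ cells. Of those 6 genes, 4 or 5 held at most 3 UMIs in each CD8+ pool, so the sum rests on the few others. Myeloid marker genes ranged from 136 to 299 CPM over all pools of both lineages with overlap between groups. An Ighm UMI was found in 44.5% of CD8+ cells with saline and 79.7% with 50 mg/kg. Among cells with no UMI of the B cell, myeloid or dendritic cell lists, where Ighm, Igkc, Jchain, Cd79b and Itgax were not counted (6515 CD4+ and 6623 CD8+ cells), 6 and 5 receptor genes were called in CD4+ cells with 5 and 50 mg/kg and 4 and 6 in CD8+ cells, against 6, 6, 4 and 7 in all cells. The part of Ighm, Jchain and the erythroid genes in the results was not tested. Barcodes that occurred in more than 1 capture numbered 218 among 21204 cells.

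On the TMM scale, higher-dose CSA lowered most of these receptor genes, and the lower dose split them. Against saline, 6 of the 7 genes fell in CD4+ cells with 50 mg/kg and 1 did not pass the test, and in CD8+ cells 6 fell and 1, Cd160, rose. With 5 mg/kg, Lag3, Ctla4 and Cd160 rose and Havcr2, Entpd1 and Btla fell in CD4+ cells, whereas in CD8+ cells Cd160 rose, Havcr2, Entpd1 and Btla fell, and Pdcd1, Lag3 and Ctla4 did not pass. The background of such calls was high, since the quasi-likelihood test of edgeR (p-values adjusted by Benjamini-Hochberg) called 51.7% of 10568 genes with 5 mg/kg (25.6% lower) and 70.5% with 50 mg/kg (35.8% lower) in CD4+ cells, and 60.2% (30.3% lower) and 74% (36.9% lower) of 10841 genes in CD8+ cells. The median log2 change over the 7 genes with 50 mg/kg was -1.57 in CD4+ and -1.33 in CD8+ cells, beside medians of -0.01 and 0.00 over all genes tested. Between the doses, all 7 genes were called in CD4+ cells (41.2% of all genes, 21.3% lower with 50 mg/kg), 6 of them lower with the higher dose and Havcr2 higher, and in CD8+ cells 6 were lower and Ctla4 did not pass (41% of all genes, 21% lower). The 3 comparisons of a lineage share their pools. Scaling matters here, because library size scaling moved the median of all genes by -0.37 and -0.45 in CD4+ and by -0.43 and -0.53 in CD8+ cells with 5 and 50 mg/kg. Under it, the rises with 5 mg/kg became 0.11 (Lag3), -0.08 (Ctla4) and -0.03 (Cd160) in CD4+ cells. In CD8+ cells the rises of Cd160 became 0.05 with 5 mg/kg and -0.31 with 50 mg/kg. Log2 changes of the 7 genes in the pools are relative to the TMM scale, and those that turned under library size scaling are named, whereas levels in clusters, thinned shares of cells and TEa levels are relative to all UMIs. With that scaling, 926 genes were higher and 5718 lower in CD4+ cells with 5 mg/kg (TMM 2758 and 2709), 1599 and 6239 with 50 mg/kg (TMM 3669 and 3785) and 1426 and 2877 between the doses (TMM 2098 and 2255). In CD8+ cells these numbers were 1180 and 6270 (TMM 3241 and 3282), 1690 and 6794 (TMM 4021 and 4003) and 1307 and 3312 (TMM 2167 and 2276). In sums over pools, fewer cells that use a gene and less RNA per cell cannot be told apart.

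**Figure D1:**
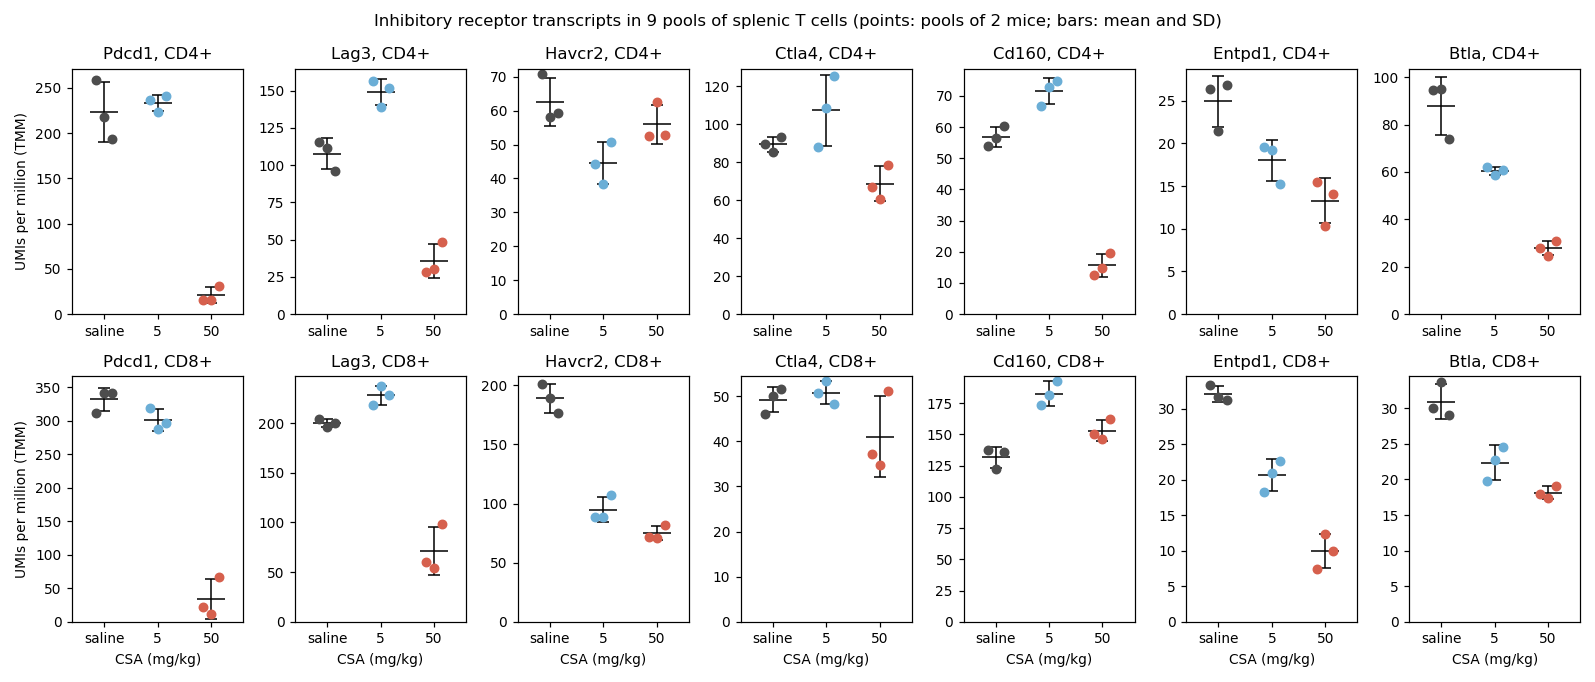
Each panel plots 1 receptor gene in CD4+ and CD8+ T cells, with TMM-scaled CPM on the vertical axis, 1 point per pool of 2 mice and a line at the mean of the 3 pools of a group. Pdcd1 and Lag3 dropped with 50 mg/kg in both lineages, Cd160 dropped in CD4+ cells only on this scale, and the third pool of the 50 mg/kg group was the highest of its group for 5 genes in CD4+ and 6 genes in CD8+ cells.

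Pdcd1, the gene of the receptor PD-1, showed the largest fall of the 7 genes with 50 mg/kg in each lineage. In CD4+ cells it measured 259, 218 and 194 CPM in the saline pools, 236, 224 and 241 CPM with 5 mg/kg, and 15.3, 15.9 and 30.9 CPM with 50 mg/kg. The pools of the low dose lay within the range of saline, and all pools of the high dose lay far below both. The log2 change was -3.40 (SE 0.14, adjusted p = 1.05e-14) with 50 mg/kg and 0.07 (SE 0.11, adjusted p = 0.588) with 5 mg/kg. In CD8+ cells the values were 312, 342 and 341 CPM with saline, 319, 288 and 296 CPM with 5 mg/kg, and 21.4, 11.6 and 67.4 CPM with 50 mg/kg. Here too only the high dose separated from saline, with a log2 change of -3.22 (SE 0.28, adjusted p = 1.04e-08), while the change of -0.14 with 5 mg/kg did not pass (adjusted p = 0.621). The sign of the CD4+ value with 5 mg/kg turned under library size scaling (-0.29, adjusted p = 0.0228), and the CD8+ value passed under it (-0.57, adjusted p = 0.0393).

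The third pool of the 50 mg/kg group stood apart in this gene. Its Pdcd1 level in CD8+ cells was 4.10 times the mean of the other 2 pools of its group and in CD4+ cells 1.98 times. A Pdcd1 UMI was found in 25.8% of its 1291 CD8+ cells, against 8.86% and 5.34% of cells in the other 2 pools and 58.8% to 68.2% in the pools of saline and 5 mg/kg. The leading clonotype gave 1.67% of the Pdcd1 UMIs of this pool, cycling cluster C2 gave 49.8% and cycling cluster C3 22.1%. Cycling clusters held 52.3% of its CD8+ cells, against 44.5% and 38.4% in the other 2 pools. Its CD8+ cells were also deeper, with a median of 8065 UMIs against 6656 and 6761.5, and these shares of cells were not thinned. The part of depth and of cycling cells in the excess was not tested. Without that pool the log2 change was -4.34 in CD8+ and -3.83 in CD4+ cells, so the direction and the call did not rest on it but the size did.

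Lag3, whose product binds MHC class II, moved in opposite directions with the doses in CD4+ cells. Its levels there were 116, 112 and 95.9 CPM with saline, 156, 139 and 152 CPM with 5 mg/kg, and 28.4, 30.04 and 48.7 CPM with 50 mg/kg. No pool of any group overlapped with another group. The log2 change was 0.47 (SE 0.10, adjusted p = 0.000724) with 5 mg/kg and -1.57 (SE 0.12, adjusted p = 2.98e-10) with 50 mg/kg, and the rise was lost with DESeq2 (adjusted p = 0.0552) and with library size scaling (0.11, adjusted p = 0.355). In CD8+ cells Lag3 measured 204, 196 and 200.3 CPM with saline, 218, 238 and 228 CPM with 5 mg/kg, and 60.6, 53.6 and 98.8 CPM with 50 mg/kg. The fall with 50 mg/kg was of similar size to that in CD4+ cells (-1.47, SE 0.13, adjusted p = 1.22e-08). The pools of 5 mg/kg all lay above those of saline, but the change of 0.19 did not pass (adjusted p = 0.189) and turned to -0.23 under library size scaling (adjusted p = 0.0924). It passed when the third pool of 50 mg/kg was left out of the joint fit (0.19, adjusted p = 0.000763). As for Pdcd1, the third pool of 50 mg/kg was the highest of its group, 1.67 times the mean of the other 2 in CD4+ and 1.73 times in CD8+ cells.

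Havcr2, which encodes TIM-3, changed differently in the lineages at both doses. In CD8+ cells it measured 201, 190 and 176 CPM with saline, 88.5, 89.0 and 107 CPM with 5 mg/kg, and 72.1, 70.8 and 81.5 CPM with 50 mg/kg. The level was already lower at the low dose, with log2 changes of -0.98 (SE 0.07, adjusted p = 2.43e-09) and -1.33 (SE 0.07, adjusted p = 1.12e-11). In CD4+ cells the values were 70.8, 58.0 and 59.2 CPM with saline, 44.4, 38.4 and 50.8 CPM with 5 mg/kg, and 52.5, 62.6 and 52.9 CPM with 50 mg/kg. The low dose lay below saline (-0.47, SE 0.10, adjusted p = 0.000542), while the pools of the high dose overlapped with saline and the change of -0.15 did not pass (adjusted p = 0.148). That value passed without the second pool of 50 mg/kg (-0.24, adjusted p = 0.0355) and with library size scaling (-0.59, adjusted p = 8.13e-06). The rise from the low to the high dose in CD4+ cells (0.32, SE 0.10, adjusted p = 0.0166) was lost without the second pool of 5 mg/kg (0.22, adjusted p = 0.113) or of 50 mg/kg (0.23, adjusted p = 0.0923) and with library size scaling (0.24, adjusted p = 0.0673), and among cells without those markers of other cell types (0.31, adjusted p = 0.0633).

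Ctla4, whose product competes with CD28 for CD80 and CD86, had log2 changes against saline between -0.38 and 0.28. Its levels in CD4+ cells were 89.4, 85.3 and 93.1 CPM with saline, 88.0, 108 and 125 CPM with 5 mg/kg, and 66.6, 60.4 and 78.7 CPM with 50 mg/kg. The high dose lay below saline in all pools (-0.38, SE 0.10, adjusted p = 0.00197), although without cells that held those markers of other cell types the change was -0.22 and did not pass (adjusted p = 0.0757). The low dose overlapped with saline, and its change of 0.28 (SE 0.10, adjusted p = 0.0186) was lost without the third pool of 5 mg/kg (0.15, adjusted p = 0.248) or the second of saline (0.25, adjusted p = 0.0779) and turned to -0.08 under library size scaling. With the cluster make-up held at that of saline, as described for all genes after the cluster results, the CD4+ changes were -0.02 with 50 mg/kg and 0.67 with 5 mg/kg on the TMM scale, and -0.46 and 0.32 with library size scaling. In CD8+ cells Ctla4 measured 46.1, 50.2 and 51.6 CPM with saline, 50.8, 53.4 and 48.3 CPM with 5 mg/kg, and 37.2, 34.8 and 51.3 CPM with 50 mg/kg. The groups overlapped through the third pool of 50 mg/kg. The change with 50 mg/kg was near the threshold (-0.25, SE 0.10, adjusted p = 0.0419) and was lost with DESeq2 (adjusted p = 0.0551) and in 6 of the 9 fits that left out 1 pool, those without the second or the third saline pool or the first or second pool of either dose (-0.25 to -0.14, adjusted p = 0.0513 to 0.234). The low dose gave 0.04 (adjusted p = 0.787) and -0.39 under library size scaling (adjusted p = 0.00334).

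Cd160 and Btla both encode receptors for HVEM, and the first of them went opposite ways in the 2 lineages. Cd160 in CD4+ cells measured 54.0, 56.4 and 60.3 CPM with saline, 66.9, 73.0 and 74.6 CPM with 5 mg/kg, and 12.4, 14.7 and 19.7 CPM with 50 mg/kg, so that all pools of the low dose lay above and all pools of the high dose below saline. The log2 changes were 0.33 (SE 0.09, adjusted p = 0.00375) and -1.86 (SE 0.11, adjusted p = 3.09e-12), the first of which turned to -0.03 under library size scaling (adjusted p = 0.796). In CD8+ cells Cd160 measured 138, 122 and 136 CPM with saline, 174, 181 and 193 CPM with 5 mg/kg, and 151, 146 and 162 CPM with 50 mg/kg. Both doses lay above saline in every pool, by 0.48 (SE 0.06, adjusted p = 1.22e-06) and 0.22 (SE 0.06, adjusted p = 0.00198). This direction rests on the scaling, since with library size scaling the changes were 0.05 (adjusted p = 0.413) and -0.31 (adjusted p = 6.95e-05).

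Btla in CD4+ cells fell step by step with dose, from 94.5, 95.1 and 73.7 CPM with saline to 62.0, 58.5 and 60.9 CPM and to 27.9, 24.7 and 30.9 CPM. The groups did not overlap, and the log2 changes against saline were -0.53 (SE 0.09, adjusted p = 4.33e-05) and -1.65 (SE 0.10, adjusted p = 2.93e-12). In CD8+ cells its level was lower, at 30.004, 33.7 and 29.1 CPM with saline, 19.7, 22.8 and 24.6 CPM with 5 mg/kg, and 17.9, 17.4 and 19.1 CPM with 50 mg/kg. The changes of -0.45 (SE 0.10, adjusted p = 0.000751) and -0.77 (SE 0.10, adjusted p = 1e-06) were smaller than in CD4+ cells. The step between the doses in CD8+ cells (-0.32, adjusted p = 0.0225) was lost without the second (-0.32, adjusted p = 0.0517) or the third (-0.23, adjusted p = 0.15) pool of 5 mg/kg or the second of 50 mg/kg (-0.29, adjusted p = 0.0622).

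Entpd1, the gene of the ectoenzyme CD39, fell in both lineages. In CD8+ cells it went from 33.3, 31.7 and 31.2 CPM with saline to 18.2, 21.0 and 22.7 CPM with 5 mg/kg and 7.49, 12.3 and 10.0 CPM with 50 mg/kg, with no overlap between groups. The changes were -0.61 (SE 0.12, adjusted p = 0.000198) and -1.68 (SE 0.12, adjusted p = 8.64e-10). In CD4+ cells the values were 26.4, 21.5 and 26.9 CPM, then 19.6, 19.2 and 15.3 CPM, then 15.5, 10.3 and 14.03 CPM. The changes of -0.48 (SE 0.14, adjusted p = 0.00695) and -0.90 (SE 0.14, adjusted p = 7.44e-06) both passed. That of the low dose was lost without the third pool of 5 mg/kg (-0.35, adjusted p = 0.0757), and the step between the doses (-0.42, adjusted p = 0.0352), where pools overlapped, was lost without the first (-0.35, adjusted p = 0.126) or second (-0.36, adjusted p = 0.123) pool of 5 mg/kg or the second of 50 mg/kg (-0.27, adjusted p = 0.181).

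**Figure D2:**
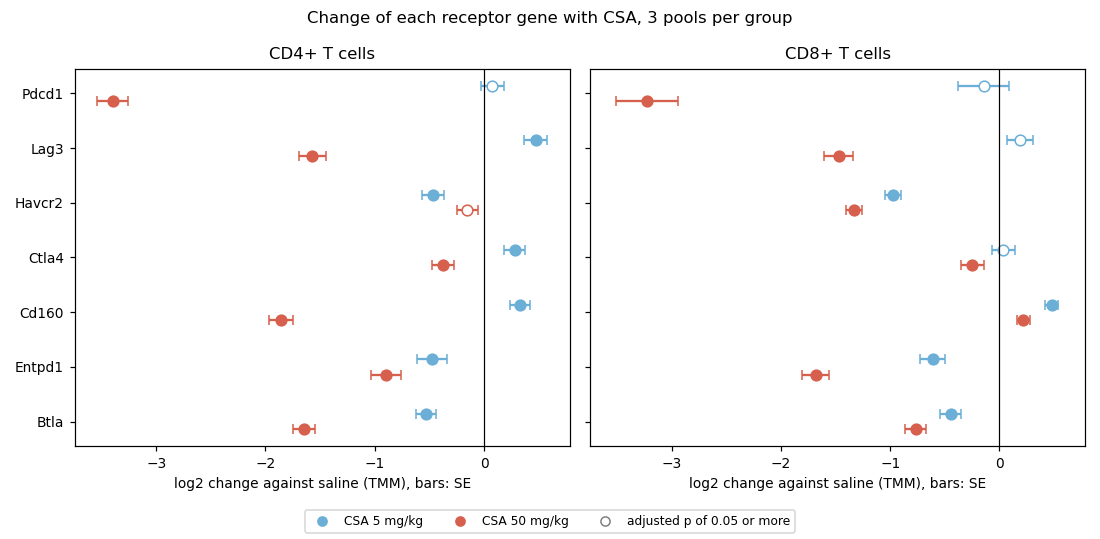
The log2 change against saline on the TMM scale is plotted for each receptor gene in CD4+ (left) and CD8+ (right) T cells, blue for 5 mg/kg and red for 50 mg/kg, with bars for 1 standard error and open circles for an adjusted p of 0.05 or more. Pdcd1 lies at -3.40 and -3.22 with 50 mg/kg, and Cd160 at -1.86 in CD4+ but 0.22 in CD8+ cells.

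Whether a gene changed differently in the lineages was tested as an interaction with the pool as a block, since both lineages came from the same spleens. With 50 mg/kg, 4 of the 7 genes passed (19.8% of 11001 genes). The change in CD8+ minus that in CD4+ cells was 2.06 for Cd160 (SE 0.11, adjusted p = 6.41e-13), -1.20 for Havcr2 (SE 0.09, adjusted p = 2.25e-09), 0.85 for Btla (SE 0.12, adjusted p = 8.24e-06) and -0.81 for Entpd1 (SE 0.21, adjusted p = 0.00573). Btla thus fell further in CD4+ and Entpd1 further in CD8+ cells. On the TMM scale, Cd160 fell in CD4+ and rose in CD8+ cells, and Havcr2 fell in CD8+ cells while its change in CD4+ cells did not pass. With library size scaling both genes fell in both lineages, Cd160 by -2.29 in CD4+ and -0.31 in CD8+ cells and Havcr2 by -0.59 and -1.86. The difference of Entpd1 was lost without the first pool of 50 mg/kg (-0.55, adjusted p = 0.0762) and with DESeq2 (-0.80, adjusted p = 0.144). For Pdcd1 (0.07, SE 0.19), Lag3 (0.07, SE 0.10) and Ctla4 (0.09, SE 0.11) no difference passed, and the value of Pdcd1 went to -0.55 (adjusted p = 0.0997) without the third pool of 50 mg/kg. With 5 mg/kg, Havcr2 (-0.53, SE 0.10, adjusted p = 0.00343) and Lag3 (-0.31, SE 0.08, adjusted p = 0.0234) passed (3.65% of all genes). The difference of Lag3 was lost without the third saline pool (-0.23, adjusted p = 0.148) or without the first (-0.26, adjusted p = 0.132) or the third (-0.30, adjusted p = 0.0751) pool of 5 mg/kg, and with DESeq2 neither passed.

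The receptor genes differed widely between the authors' clusters, 13 of CD4+ and 9 of CD8+ cells. Levels in clusters are CPM without TMM factors over pools in which the cluster had 10 or more cells. They are a description, since the clustering used these same counts. The mean log2 level of a marker list was highest in the clusters named naive, follicular helper, regulatory, Th17 and exhausted. Single markers were highest there for 3 of 5 naive genes in CD4+ C9 and 4 of 5 in CD8+ C7. The same held for 3 of 4 follicular helper, 4 of 4 regulatory and 4 of 5 Th17 genes, but for only 2 of 4 exhausted genes in CD8+ C8. For the CD4+ cluster C7, named cytotoxic in the study, the list Gzmk, Nkg7, Prf1 and Eomes ranked 7 of 13 clusters, and it is called C7 here.

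With saline, naive cells were the lowest of the clusters for Pdcd1, at 24.4 ± 10.9 CPM (SD, n = 3) in CD4+ cluster C9 and 25.9 ± 15.7 CPM in CD8+ cluster C7. In CD8+ cells Pdcd1 was highest in the Tcf7hi cluster C5 (516 ± 133 CPM), the exhausted cluster C8 (512 ± 72.1 CPM) and the third cycling cluster C4 (507 ± 45.4 CPM), whose pools overlapped with each other and not with the next cluster, C2 (385 ± 25.8 CPM). In CD4+ cells C7 (336 ± 57.7 CPM), C6 (333 ± 37.2 CPM), C0 (313 ± 56.0 CPM) and the follicular helper cluster C4 (309 ± 39.8 CPM) led and overlapped, so their order is within the spread of pools. Every other CD4+ cluster down to C1 (138 ± 24.1 CPM) overlapped with its neighbour in the order, and the naive cells lay below without overlap.

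Havcr2 and Lag3 divided the CD8+ clusters differently. Havcr2 reached 525 ± 10.4 CPM in the exhausted cluster C8 and 360 ± 20.9 CPM in cycling cluster C4, each apart from the next, but 21.9 ± 10.2 CPM in the Tcf7hi cluster C5, which overlapped with naive cells (11.6 ± 10.4 CPM). Lag3 was instead highest in C5 (450 ± 75.8 CPM), overlapping with C8 (417 ± 64.6 CPM). The Tcf7hi cluster thus carried Pdcd1 and Lag3 with little Havcr2. It also had the highest CD8+ level of Btla (105 ± 6.93 CPM, no overlap with C8 at 58.4 ± 17.03 CPM) and of Ctla4 (93.7 ± 9.13 CPM, overlapping with C6 at 79.99 ± 15.1 CPM). Cd160 was highest in C8 (535 ± 125 CPM) and next in C5 (267 ± 21.99 CPM), both apart from the rest, and its level in naive CD8+ cells (148 ± 41.5 CPM) overlapped with those in the effector clusters C0 (147 ± 24.6 CPM) and C1 (133 ± 12.5 CPM).

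In CD4+ cells the follicular helper cluster C4 had the highest level of Btla (240 ± 31.6 CPM), Lag3 (209 ± 21.0 CPM) and, among clusters seen in 3 saline pools, Ctla4 (164 ± 2.34 CPM), each overlapping with the next cluster. The regulatory cluster C11 had at least 10 cells in 1 saline pool and measured 846 CPM of Ctla4 there, without replicates. Cd160 was highest in C7 (205 ± 49.6 CPM), apart from the next cluster, and Entpd1 in C0 (58.6 ± 7.37 CPM), also apart. Naive CD4+ cells had no Entpd1 UMI and the lowest Pdcd1, but 110 ± 11.8 CPM of Btla, above effector clusters such as C1 (43.1 ± 9.50 CPM).

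Changes were then tested inside clusters that had at least 10 cells in each of the 9 pools, which left 10 CD4+ and 7 CD8+ clusters. The receptor genes gave 49 tests in CD4+ and 42 in CD8+ cells, since a gene was tested in a cluster only where it passed the count filter, which a gene can pass through saline alone. In CD4+ cluster C9 (naive) no receptor gene was tested, and in CD8+ cluster C7 (naive) Cd160 alone. With 50 mg/kg, 34 tests were lower and 1 higher in CD4+ cells (33.3% of 51220 tests over all genes, 17% lower), and 29 were lower and 4 higher in CD8+ cells (44% of 47238 tests, 22.5% lower). At 5 mg/kg, 5 were lower and 4 higher in CD4+ (12.9%, 5.3% lower) and 7 lower and 4 higher in CD8+ cells (23.4%, 10.9% lower). The 9 calls in CD4+ cells with 5 mg/kg became 4 without the second pool of 5 mg/kg, 5 without the third and 3 with DESeq2, and the 11 calls in CD8+ cells became 6 with DESeq2 and 19 with library size scaling.

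Pdcd1 fell in all 9 CD4+ and all 6 CD8+ clusters where it was tested with 50 mg/kg, by log2 changes between -4.85 and -2.25 and between -5.80 and -2.83. The deepest fall was in CD8+ cluster C0, from 311 ± 8.70 to 6.96 ± 8.45 CPM on the TMM scale of that cluster (adjusted p = 3.61e-34), and the least was in CD4+ C7, from 305 ± 53.3 to 63.5 ± 16.4 CPM (adjusted p = 2.34e-09). With 5 mg/kg it passed in CD8+ C0 alone, where it was lower (-0.51, SE 0.14, adjusted p = 0.00525). In the exhausted CD8+ cluster C8, which did not have enough cells to be tested, Pdcd1 went from 512 ± 72.1 to 39.9 ± 26.9 CPM with 50 mg/kg.

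Lag3 fell with 50 mg/kg in all 6 CD8+ clusters tested (-2.16 to -1.23) and in 7 of 9 CD4+ clusters. The exceptions in CD4+ cells were the Tcf7hi precursor-like cluster C2, at 143 ± 37.5 CPM with saline and 162 ± 35.7 CPM with 50 mg/kg (0.22, SE 0.16, adjusted p = 0.319), and the follicular helper cluster C4, at 249 ± 25.7 and 172 ± 274 CPM (-0.67, SE 0.46, adjusted p = 0.271). At the low dose Lag3 rose in the CD4+ clusters C0 (0.72, adjusted p = 0.000386), C2 (0.70, adjusted p = 0.000294) and C4 (0.71, adjusted p = 0.016).

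Cd160 rose with 5 mg/kg in the CD8+ clusters C0, C2, C3 and C6 (0.30 to 0.72) and with 50 mg/kg in C0, C1 and C6 (0.41 to 0.62), and it fell with 50 mg/kg in all 6 CD4+ clusters tested (-2.97 to -1.09). Naive CD8+ cells moved the other way in value, with -0.42 and -0.35, which did not pass. Btla fell with 50 mg/kg in 8 of 9 CD4+ clusters (-4.68 in C10, a small cluster of 202 cells) and 4 of 6 CD8+ clusters. Entpd1 fell in all 5 CD8+ clusters tested (-2.17 to -0.80) and in C0 and C1 of 3 CD4+ clusters.

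Havcr2 and Ctla4 were the genes with opposite directions between clusters. Havcr2 fell with 50 mg/kg in 5 of 6 CD8+ clusters (-1.36 to -0.42). It rose in the Tcf7hi cluster C5, from 18.6 ± 8.67 to 41.3 ± 10.3 CPM on the TMM scale of that cluster (1.15, SE 0.45, adjusted p = 0.0365). That rise starts from a low level, which with saline overlapped with naive cells, and the difference between clusters was not tested. The CD4+ clusters gave no call for Havcr2 with 50 mg/kg. Ctla4 fell with 50 mg/kg in the CD4+ follicular helper cluster C4 (-2.0, adjusted p = 0.00546) and Fcer1ghi cluster C8 (-1.56, adjusted p = 3.46e-05) and rose in C7, from 53.1 ± 11.1 to 114 ± 65.6 CPM (1.10, SE 0.36, adjusted p = 0.0195). At the low dose Ctla4 rose in CD4+ C0 (0.73, adjusted p = 0.000219) and fell in C8 (-0.91, adjusted p = 0.0288).

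**Figure D3:**
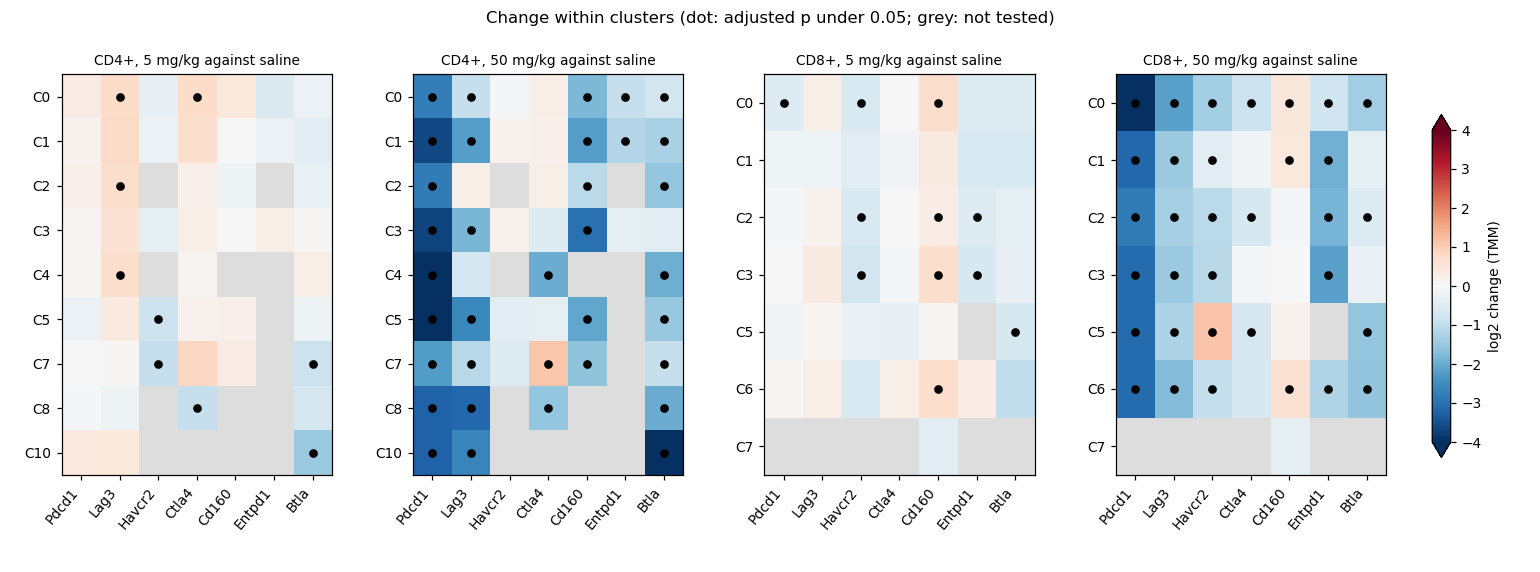
Rows are clusters and columns receptor genes, with the log2 change on the TMM scale as colour for each lineage and dose against saline, a dot for an adjusted p under 0.05 and grey where the gene was not tested, and colours end at 4 in either direction. With 50 mg/kg the Pdcd1 column is dotted and blue in all 15 clusters tested, and red dotted cells are Ctla4 in CD4+ C7 and Cd160 in C0, C1 and C6 and Havcr2 in C5 of CD8+ cells.

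The make-up of the pools also moved with dose. The third cycling CD8+ cluster C4, rich in Havcr2, held 21.9% ± 1.36 of CD8+ cells in the saline pools, 3.06% ± 0.11 with 5 mg/kg and 0.57% ± 0.05 with 50 mg/kg (SD, n = 3), and it gave 48.2% ± 2.25 of Havcr2 UMIs with saline. The CD4+ follicular helper cluster C4 held 18.1% ± 0.71 of cells and 29.2% ± 2.33 of Btla UMIs with saline and 1.47% ± 0.37 of cells with 50 mg/kg. Pool levels were therefore recomputed with every cluster at its mean UMI share in the saline pools. This is a description with no minimum of cells per cluster. The few cells of CD8+ C4 with 50 mg/kg thus enter at the large saline share of that cluster.

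The fall of Pdcd1 with 50 mg/kg kept its size under this standardisation (-3.42 in CD4+ and -3.36 in CD8+ cells), as did that of Lag3 in CD8+ cells (-1.58). In CD4+ cells the fall of Lag3 went from -1.57 to -0.75 and that of Btla from -1.65 to -0.93. The standardised CD4+ Lag3 levels with 50 mg/kg were 35.5, 47.7 and 109 CPM, the last within the range of saline (97.5 to 113 CPM). The Lag3 value of -0.75 thus leaned on the third pool. For the low dose the result turned with the scale. Havcr2 in CD8+ cells changed by -0.98 in the pools and by 0.29 after standardisation with TMM factors, and by -1.40 and -0.13 with library size scaling, so the standardised value was closer to 0 or above it on each scale. Within clusters, however, Havcr2 was lower with 5 mg/kg in all 6 CD8+ clusters tested (-0.75 to -0.25, 3 of them past the test). The untested cluster C4 went the other way, from 360 ± 20.9 to 491 ± 144 CPM in 81 cells. In CD4+ cells the standardised changes of Havcr2, Entpd1 and Btla with 5 mg/kg were 0.27, 0.05 and 0.06 with TMM factors and -0.09, -0.31 and -0.30 with library size scaling.

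How many of the 7 genes a cell showed was compared after thinning each cell of at least 2000 UMIs to 2000, since unthinned shares rise with depth. With saline, 32.8% ± 2.10 of CD4+ and 50.0% ± 0.42 of CD8+ cells showed 2 or more of the genes (SD, n = 3 pools). At 5 mg/kg the shares were 24.6% ± 1.24 and 35.5% ± 2.28, and with 50 mg/kg 5.11% ± 0.97 and 10.99% ± 3.50. No pool overlapped with another group in either lineage. The lower share with 5 mg/kg rested on thinning to equal UMI numbers. Without it the shares in the same cells were 51.9% ± 2.002, 54.99% ± 4.52 and 23.5% ± 3.62 of CD4+ and 75.5% ± 0.77, 74.8% ± 4.64 and 46.8% ± 11.3 of CD8+ cells with saline, 5 and 50 mg/kg, where the low dose overlapped with saline and the high dose lay below it. Cells with none of the 7 genes made up 32.9%, 40.5% and 72.1% of CD4+ and 18.7%, 28.9% and 55.6% of CD8+ cells in the same order. Naive cells are given beside these, although naive CD4+ cells carried Btla and naive CD8+ cells Cd160. With saline, 54 naive CD4+ cells entered and 56 shallower ones were left out. Naive cells showed 2 or more genes in 6.42% ± 5.48, 8.36% ± 2.05 and 0.08% ± 0.13 of CD4+ and in 5.72% ± 1.36, 3.48% ± 0.80 and 1.85% ± 1.66 of CD8+ cells. These are shares of cells with a UMI after thinning, not of cells with the protein.

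**Figure D4:**
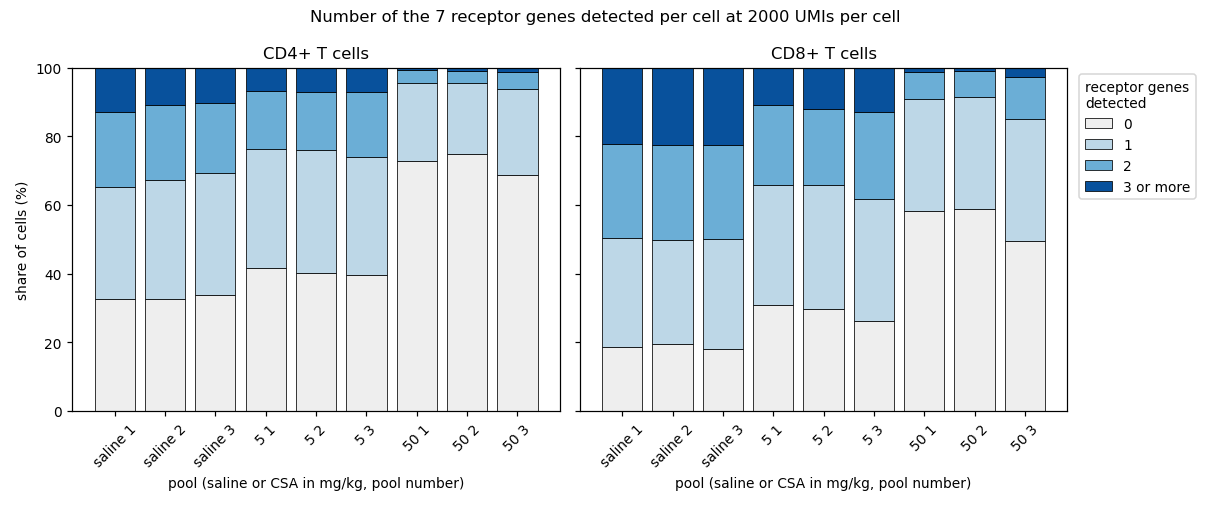
Stacked bars give the percentage of cells, thinned to 2000 UMIs, that showed 0, 1, 2 or at least 3 of the 7 receptor genes in each pool, for CD4+ and CD8+ T cells. The share with 2 or more fell from 50.0% with saline to 10.99% with 50 mg/kg in CD8+ cells and from 32.8% to 5.11% in CD4+ cells.

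Pairs of receptors went with these shares. Pdcd1 and Havcr2 were found together in 15.6% ± 0.50 of thinned CD8+ cells in the saline pools, 6.26% ± 0.51 with 5 mg/kg and 0.61% ± 0.63 with 50 mg/kg, and Pdcd1 and Lag3 in 19.4% ± 0.86, 13.2% ± 0.56 and 0.96% ± 0.96. In CD4+ cells Pdcd1 and Lag3 were together in 8.38% ± 0.66, 7.09% ± 0.52 and 0.61% ± 0.44 of cells. Cd160 in CD8+ cells was found in 24.7% ± 1.34, 25.4% ± 1.31 and 20.2% ± 1.02 of thinned cells. Naive CD8+ cells, with 22.4% ± 4.64, 15.1% ± 6.42 and 18.04% ± 4.80, overlapped with all CD8+ cells at saline and 50 mg/kg and lay below them at 5 mg/kg. Without thinning, the Pdcd1 share in CD8+ cells was 65.2%, 63.1% and 13.4%, against 45.7%, 34.8% and 4.27% thinned.

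Expanded clonotypes, found in at least 2 cells of a pool, were compared with clonotypes of 1 cell within the same pool (1701 and 6283 CD4+ and 2662 and 6341 CD8+ cells). In CD8+ cells Pdcd1 was higher in expanded clonotypes in 9 of 9 pools, for instance 452, 521 and 528 CPM against 375, 355 and 374 CPM with saline, and 22.6, 14.52 and 88.6 CPM against 18.2, 9.03 and 48.6 CPM with 50 mg/kg. The log2 difference was 0.53 (SE 0.05, adjusted p = 5.34e-08). Havcr2 (0.49, SE 0.06, adjusted p = 5.32e-06) and Lag3 (0.23, SE 0.04, adjusted p = 0.000268) were higher as well, in 9 and 8 of 9 pools, and Cd160 was lower by a small amount (-0.13, SE 0.04, adjusted p = 0.0445) that was lost without any 1 of the 5 mg/kg pools (-0.14 to -0.11, adjusted p = 0.0515 to 0.103), the second (-0.12, adjusted p = 0.0998) or the third saline pool (-0.13, adjusted p = 0.0565) or the third of 50 mg/kg (-0.10, adjusted p = 0.14). Ctla4 (0.11), Entpd1 (0.03) and Btla (0.15) did not pass. The 4 calls compare with 15.1% of 9227 genes. In CD4+ cells Pdcd1 (0.71, SE 0.07, adjusted p = 2.18e-08, higher in 8 of 9 pools) and Havcr2 (0.74, SE 0.10, adjusted p = 1.96e-06, 9 of 9 pools) were higher and Ctla4 was lower (-0.28, SE 0.07, adjusted p = 0.00691, higher in 2 of 9 pools), 3 calls beside 18.8% of 9011 genes. Lag3 (0.01), Cd160 (0.10), Entpd1 (0.08) and Btla (0.02) did not pass in CD4+ cells. The call of Ctla4 was lost among cells outside the cycling clusters (-0.15, adjusted p = 0.465) and in the saline pools alone (-0.13, adjusted p = 0.588). Expanded and single cells can also differ in cluster, the part of which was tested only by leaving out cycling clusters.

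The TEa cells, which all carry the same alloreactive TCR, numbered 123, 130 and 27 in the 3 groups and were too few to divide by pool. Their Pdcd1 level was 245 CPM (95% exact Poisson interval 205 to 291) with saline, 163 CPM (136 to 195) with 5 mg/kg and 4.35 CPM (0.11 to 24.2, from 1 UMI) with 50 mg/kg. Lag3 stood at 99.95, 87.5 and 131 CPM (88.1 to 186 with 50 mg/kg), and Ctla4 at 90.5, 51.0 and 82.7 CPM. Btla stood at 132, 45.7 and 21.8 CPM and Cd160 at 71.7, 62.7 and 34.8 CPM. Havcr2 stood at 43.4, 48.3 and 13.1 CPM and Entpd1 at 13.2, 5.23 and 4.35 CPM. With 50 mg/kg, Btla, Cd160, Havcr2 and Entpd1 rest on 5, 8, 3 and 1 UMIs. The intervals cover counting error only, each group is 1 sample here and no test was made. The Lag3 value with 50 mg/kg comes from 30 UMIs in 27 cells. Whether TEa cells changed otherwise than polyclonal CD4+ cells was not tested.

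Partner genes were taken from lists by role and not by their change. Of 9 ligand genes 7 were tested, and with 50 mg/kg 5 were higher and 2 lower in CD4+ and 3 higher and 2 lower in CD8+ cells, beside 70.5% of all genes called in CD4+ (35.8% lower) and 74% in CD8+ cells (36.9% lower) at this dose, the background for the partner lists. Cd80 rose from 13.2 ± 1.64 to 34.7 ± 2.21 CPM in CD4+ cells (1.41, adjusted p = 4.7e-09) and Pdcd1lg2, which encodes PD-L2, rose in both lineages (1.07 and 0.49, the latter -0.01 with library size scaling), whereas Cd274, which encodes PD-L1, fell in both (-0.51 and -0.84). Lgals9, the gene of galectin-9, rose in CD8+ cells from 105 ± 7.59 to 179 ± 3.26 CPM (0.78, adjusted p = 4.96e-10). Ligands are mostly made by other cells, and these values are those of sorted T cells.

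Among 10 other inhibitory receptors, 4 were higher and 4 lower in CD4+ and 3 higher and 6 lower in CD8+ cells with 50 mg/kg, near or somewhat above the background of 70.5% and 74% of all genes called. Tigit, a receptor for CD155, fell from 249 ± 6.83 to 65.2 ± 7.93 CPM in CD4+ (-1.93, adjusted p = 1.07e-15) and from 204 ± 2.53 to 110 ± 24.1 CPM in CD8+ cells (-0.88, adjusted p = 1.87e-07). Cd200r1 fell in CD4+ (-2.05) and Cd200 in CD8+ cells (-1.87). Klrg1, a receptor for cadherins, rose from 13.9 ± 1.82 to 155 ± 18.6 CPM in CD4+ (3.46, adjusted p = 6.86e-17) and from 28.4 ± 3.96 to 178 ± 56.8 CPM in CD8+ cells (2.64, adjusted p = 5.8e-10), and Cd5 rose in both (0.85 and 0.33, the latter -0.21 with library size scaling).

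In the signalling and adenosine list, 2 of 7 genes were higher and 4 lower in CD4+ and 3 higher and 2 lower in CD8+ cells with 50 mg/kg, near the background of 70.5% and 74%. Ptpn11, which encodes the phosphatase SHP-2 recruited by PD-1, fell from 155 ± 6.95 to 45.1 ± 2.25 CPM in CD4+ (-1.78, adjusted p = 5.16e-16) and from 132 ± 1.81 to 43.7 ± 6.46 CPM in CD8+ cells (-1.58, adjusted p = 1.28e-12). Nt5e, the gene of CD73, which acts after CD39 in making adenosine, fell in CD4+ cells (-1.47), and Inpp5d in CD8+ cells (-0.66). Csk rose in both lineages (0.37 and 0.46), Adora2a in CD4+ (0.22) and Ptpn6 in CD8+ cells (0.53), but with library size scaling the log2 ratio of means was -0.07 for Csk in each lineage, -0.22 for Adora2a and 0.00 for Ptpn6.

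Of 15 transcription factors, 11 were lower and 3 higher in CD4+ and 12 lower and 2 higher in CD8+ cells with 50 mg/kg, beside 35.8% and 36.9% of all genes called lower. Tox, a regulator of the exhausted state, fell from 146 ± 13.1 to 13.9 ± 1.46 CPM in CD4+ (-3.39, adjusted p = 8.09e-18) and from 164 ± 10.4 to 9.48 ± 2.67 CPM in CD8+ cells (-4.07, adjusted p = 5.96e-16). Tox2 fell in CD4+ cells from 41.8 ± 4.97 to 0.73 ± 0.54 CPM (-5.76), a size that rests on a level near the floor. Nr4a2 fell in CD8+ cells (-2.59). Nr4a1, of the same family as Nr4a2, rose in both lineages (1.53 and 1.85), as did Eomes (1.75 and 0.55, the latter 0.02 with library size scaling).

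Genes whose levels varied most like each receptor were sought over the 22 clusters of both lineages, with Pearson's r of log2(mean CPM + 1). The points share captures, and the values are a description. Among the genes most like Pdcd1 were Nrp1 (0.88), Pigt (0.88), Lrmp (0.87) and Ap1s2 (0.87). Lag3 was most like Ubash3b (0.86) and then Pdcd1 (0.81), Lrmp (0.80), Sh2d2a (0.79) and Fuca2 (0.79), and Pdcd1 with Lag3 was the closest pair among the 7 genes. The leading genes for the others were Sept11 for Havcr2 (0.96), Ikzf2 for Ctla4 (0.90), Crtam for Cd160 (0.91), Fgl2 for Entpd1 (0.90) and Etv6 for Btla (0.94).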

How the data were processed

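The deposited tables held UMI counts per gene and cell for CD4+ and CD8+ T cells, with hashtag UMI counts, clusters and clonotypes, and the fraction of mitochondrial UMIs per cell as given by the authors. Per the submitters' notes the reads were processed with Cell Ranger and Seurat 3.0.0 on mm10, further settings are not given in the sources used here, and no column of the authors' own comparisons was used. Pools were taken from the hashtag identity of each cell, and the numbered CD8+ clusters of the cell table were matched to the names C0 to C8 by their cell numbers. UMI counts were summed per pool without the 280 TEa cells, genes were kept by filterByExpr, scaled with TMM and tested with edgeR 4.0.16 (R 4.3.3, limma 3.58.1), quasi-likelihood test, Benjamini-Hochberg adjustment and a threshold of 0.05, with the 9 pools of a lineage in 1 fit. P-values measure the spread between pools of 2 mice. The interaction and the clonotype tests had the pool as a block. Within clusters, p-values were adjusted over all genes and clusters of a lineage, with at least 10 cells in each pool. Cells were thinned to 2000 UMIs in 20 draws, leaving out shallower cells, and the authors' cell filter was kept with no further doublet call, while 1080 cells had another hashtag at 0.5 or more of the leading one. The 7 genes, the partner and marker lists and the tests were chosen with earlier results of these data known. All 7 genes are given for each dose against saline, for clonotypes and for TEa cells, and other comparisons name only some of them. Named of the partner lists are up to 2 genes with the largest rise and fall per lineage at 50 mg/kg past the threshold with at least 10 CPM. Of the genes most alike, the 5 leading ones among those of at least 20 CPM were taken. Alternatives were DESeq2 1.42.0, no count filter, library size scaling, the compared groups only, the hashtag number as a block, cells outside cycling clusters, cells of at least 2000 UMIs, cells without a second hashtag, TEa cells included, each pool left out, clonotypes of at least 3 cells, saline pools only, a minimum of 20 cells per cluster, adjustment within each cluster, thinning to 1000 UMIs and standardised cluster make-up. Cells without B cell, myeloid or dendritic cell markers (Ighm, Igkc, Jchain, Cd79b and Itgax not counted), clonotypes of both chains, and standardisation with library size scaling were added after the data had been seen. The code was tested on simulated data, and promoters were read from RefSeq (GRCm38.p6), where 6 of the 7 genes matched, all but Lag3. Some genes that these rules would name are not reported here.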

Additional observations from a re-analysis of the deposited data

Results flagged for a closer look

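Several receptor genes changed by a different amount in CD8+ and CD4+ cells, by the edgeR interaction test on 3 pools per group. With 5 mg/kg, the change in CD8+ minus that in CD4+ cells was -0.53 for Havcr2 and -0.31 for Lag3 on the log2 scale. With 50 mg/kg it was 2.06 for Cd160, -1.20 for Havcr2, 0.85 for Btla and -0.81 for Entpd1. With DESeq2 neither of the differences with 5 mg/kg passed, nor did that of Entpd1 with 50 mg/kg. The differences of Lag3 and Entpd1 were also lost in some fits that left out 1 pool. Inside CD4+ clusters with 5 mg/kg, Ctla4 was higher in the Cd226hi effector cluster C0 (0.73) and lower in the Fcer1ghi cluster C8 (-0.91), and the difference between these clusters was not tested. Causes of these differences were not tested.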

How the results depend on the processing

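Depth rose with dose and each treatment was 1 capture, which limits what any scaling can separate, and no cause of the changes listed here was tested. Library size scaling turned 6 log2 changes, with 5 mg/kg those of Pdcd1 (-0.29), Ctla4 (-0.079) and Cd160 (-0.029) in CD4+ and of Lag3 (-0.23) and Ctla4 (-0.39) in CD8+ cells, and with 50 mg/kg that of Cd160 in CD8+ cells (-0.31). It also took the differences between lineages with 50 mg/kg to -0.000221 for Pdcd1 and -0.00175 for Lag3. Outside the cycling clusters, Ctla4 with 5 mg/kg was -0.13 and Havcr2 between the doses 0.13 in CD8+ cells, and without cells bearing markers of other cell types that Ctla4 value was -0.00156. With DESeq2 the lineage difference of Pdcd1 with 50 mg/kg was -0.17, and in clonotypes Lag3 (-0.15) and Btla (-0.027) of CD4+ and Entpd1 (-0.031) of CD8+ cells turned. Other turned clonotype values, all small, were Lag3 (-0.000979) and Cd160 (-0.060) of CD4+ cells with at least 3 cells, Lag3 with both chains (-0.10), and in saline pools only Cd160 (-0.034) of CD4+ and Ctla4 (-0.089) and Btla (-0.061) of CD8+ cells. Standardised cluster make-up turned Havcr2 (0.27), Entpd1 (0.048) and Btla (0.062) with 5 mg/kg and Havcr2 (0.35) with 50 mg/kg in CD4+ cells, and Pdcd1 (0.062), Havcr2 (0.29) and Entpd1 (0.12) with 5 mg/kg in CD8+ cells. Together with library size scaling it turned Pdcd1 (-0.059) in CD4+ and Lag3 (-0.00455), Ctla4 (-0.049) and Cd160 (-0.052) in CD8+ cells with 5 mg/kg, and Cd160 (-0.37) with 50 mg/kg.

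Leaving out 1 pool moved the change of Pdcd1 with 5 mg/kg in CD4+ cells between -0.022 and 0.18 and that of Ctla4 in CD8+ cells between -0.0065 and 0.076. The lineage difference ranged from -0.022 to 0.13 for Btla with 5 mg/kg and from -0.55 to 0.33 for Pdcd1 with 50 mg/kg. Clonotype differences in CD4+ cells ranged from -0.11 to 0.077 for Lag3, -0.046 to 0.17 for Cd160, -0.019 to 0.18 for Entpd1 and -0.069 to 0.077 for Btla, and in CD8+ cells from -0.12 to 0.078 for Entpd1. The 2 lineage differences called with 5 mg/kg became 0 with DESeq2, 1 with cells of at least 2000 UMIs and 1 to 2 when a pool was left out. Calls inside clusters with 5 mg/kg became 3 with DESeq2 and 4 to 11 without a pool in CD4+ cells, and 6, 8 to 13 and, with library size scaling, 19 in CD8+ cells. The difference in the share of cells with 2 or more receptor genes, 50 mg/kg minus saline, went from -27.6 to -12.7 percentage points in CD4+ and from -39.0 to -21.4 in CD8+ cells when thinned to 1000 UMIs. The hashtag number as a replicate block left 6, 6 and 7 genes called in CD4+ and 4, 7 and 7 in CD8+ cells, the last from 6 because Ctla4 between the doses passed (-0.28, edgeR adjusted p = 0.0437). Same-numbered pools correlated between -0.09 and 0.07 in their deviations from group means. In CD4+ cells 0 of 9 pools and in CD8+ cells 4 of 9 were closest to their own number in both other groups. The labels do not say whether a number marks a shared litter, cage or day, and these values cannot decide it.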
